A study of Mus musculus with 24 samples.

Results

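Stellate cells, pericytes and fibroblasts are the connective tissue cells that lie around and within the islets of the pancreas. Here 10 genes of these cells and of the noncollagen matrix they make were followed in islets of the NOD mouse, which becomes diabetic through autoimmune attack on its beta cells. They were chosen by name, as every noncontrol probe of the array whose gene name or RefSeq accession belongs to Lum, Dcn, Fn1, Sparc, Postn, Adamts2, Pdgfra, Pdgfrb, Acta2 or Thy1. These 10 genes have 22 of the 41174 probes, and 17 of the 22 were bright enough to test. All 10 genes are among the 18085 genes tested.

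Single NOD/LtJ females, 6 at each of 10 days, 4 weeks, 12 weeks and 20 weeks, gave islets freed with collagenase. The RNA of each NOD mouse, labelled with the red dye Cy5, was hybridised on a 2-colour Agilent array together with green, Cy3-labelled islet RNA pooled from 6 female NOD.B10Sn-H2b/J mice of the same age. NOD.B10 is a congenic strain that shares the NOD background but carries another MHC haplotype and is protected from diabetes. No mouse was described as treated, no dyes were swapped, and each age had 1 pool, so the ratios leave out the spread among control mice.

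In the quiescent state stellate cells store vitamin A and express desmin; on activation they take on smooth muscle actin, lay down fibrillar collagen, fibronectin and periostin, and respond to PDGF and TGF-beta. The matrix they build is assembled from collagen fibrils whose spacing is set by small leucine-rich proteoglycans such as lumican and decorin, and from glycoproteins that link fibrils to cells. During early postnatal life this matrix is laid down rapidly, whereas in the inflamed islet of the NOD mouse the matrix around the islet is known to be broken down as leukocytes enter.

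Probes of several of these genes are shown because a probe decides what its ratio measures. The calls of Sparc and Thy1 rest on brighter probes that are not shown. Each probe shown is 60 bases long, is read from the scanner files and is placed on build mm9. Capitals mark the stop codon, which ends the Adamts2 probe and is followed by 3 bases in the Dcn probe. The other 4 probes carry no capitals and take up more genome than their own length, because they cross an exon junction: 2238 bases for Fn1, 2658 for Sparc, 3255 for Acta2 and 446 for Thy1.
Adamts2, chr11:50617472-50617531, + strand: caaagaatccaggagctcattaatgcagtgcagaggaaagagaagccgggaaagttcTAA
Dcn, chr10:96980233-96980292, + strand: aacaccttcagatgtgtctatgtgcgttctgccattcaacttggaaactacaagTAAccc
Fn1, chr1:71637422-71639659, - strand: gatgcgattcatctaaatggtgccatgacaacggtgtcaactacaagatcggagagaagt
Sparc (the dimmer of its probes), chr11:55209449-55212106, - strand: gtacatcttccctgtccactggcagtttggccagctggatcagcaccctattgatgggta
Acta2, chr19:34322995-34326249, - strand: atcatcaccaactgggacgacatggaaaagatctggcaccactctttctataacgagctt
Thy1 (the dimmer of its probes), chr9:43854991-43855436, + strand: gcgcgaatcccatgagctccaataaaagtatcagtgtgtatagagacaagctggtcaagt

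A ratio below is log2 of the NOD mouse over its age-matched pool, so that -1 is a 2-fold lower level in NOD. Each gene is reported by its brightest tested probe. A gene was called when its limma test, adjusted by Benjamini-Hochberg over all 18085 genes, gave an adjusted p under 0.05 and its mean ratio was at least 2-fold. Percentages of all genes are from this main processing, also where counts under another scaling follow. The arrays did not all resemble each other: ratios of arrays of the same age correlated at r from 0.19 to 0.90 across probes, and those of different ages, each against its own pool, at -0.52 to 0.76. The share of probes well above background was 42.3% to 64.6% in the NOD channel and 39.4% to 60.4% in the pool channel. Of 13 listed stellate cell and pericyte genes outside the 10, 12 were tested, and 11 of these stood well above background in all 6 NOD channels of each age. The retinol acyltransferase Lrat, which marks vitamin A storage, was never well above background in a pool, and Gfap, another stellate cell gene, was too dim to test.

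At 10 days the connective tissue genes were low in NOD islets relative to the pool, and at 4 weeks none of them was called lower. Of the 10 genes 6 were called lower at 10 days (Adamts2, Lum, Dcn, Sparc, Postn and Pdgfrb) and 0 higher, beside 2.36% of all genes called lower and 1.61% called higher. Their median ratio was -1.18, against 0.01 for all genes tested. Counted over single mice, 51 of the 60 ratios of these genes were below 0 at 10 days, 19 at 4 weeks, and 3 in each of the older groups. At 4 weeks 0 of the 10 were called by limma, beside 2.79% of all genes in either direction. Of the 10, 6 had an unadjusted limma p under 0.05, a limit for which the share of all genes is not given. Without 10 day replicate 2 or replicate 4, Pdgfrb fell short of the 2-fold floor (-0.97 and -0.95), which left 5 called. With each array centred on its median, which moved the median of all genes to 0.38 at 10 days, only Adamts2 (-1.95) and Lum (-1.37) were called; Dcn, Postn, Sparc and Pdgfrb read -0.68, -0.70, -0.52 and -0.35.

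**Figure D1:**
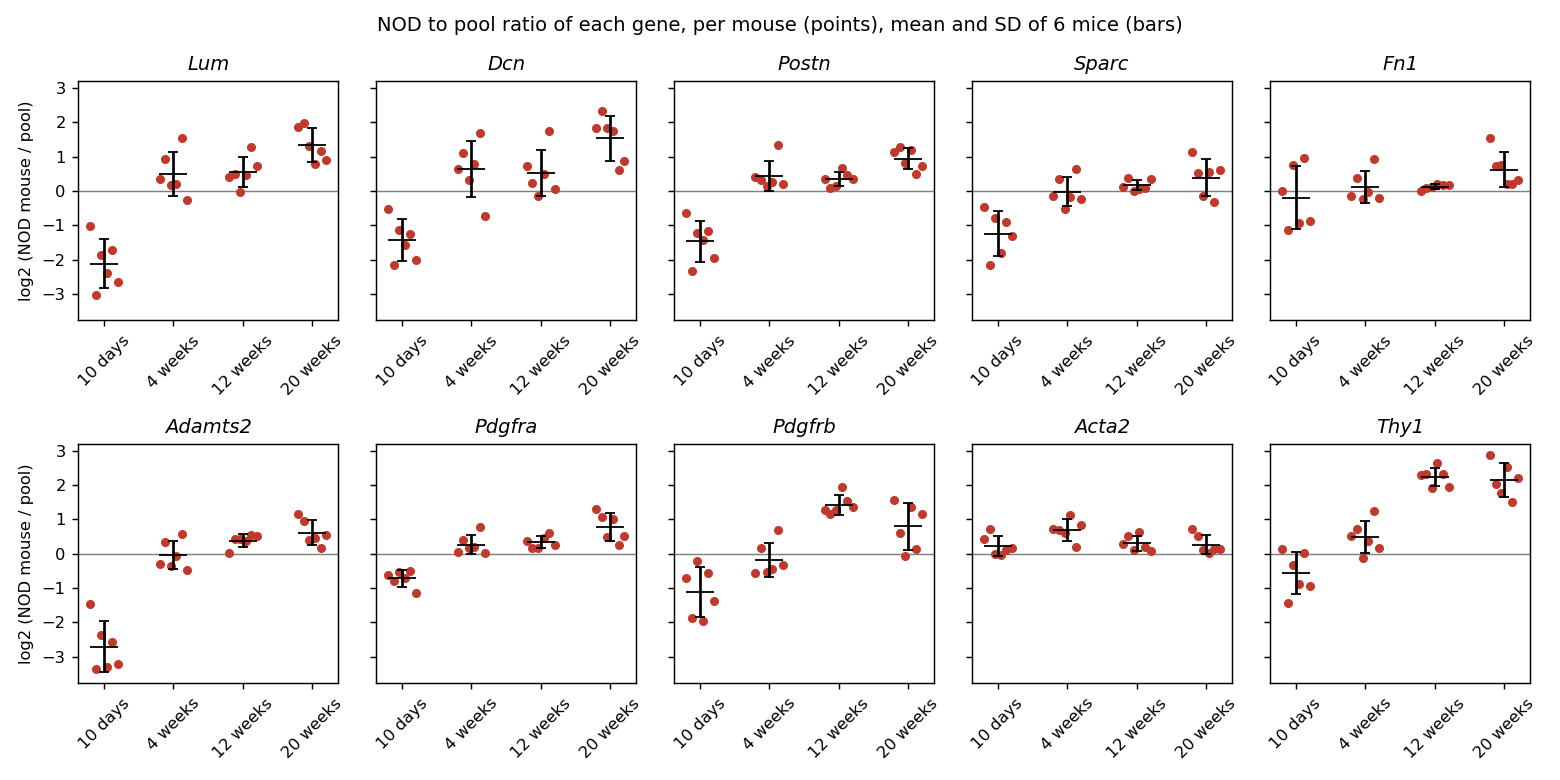
The log2 ratio of each NOD mouse to its age-matched pool (vertical axis) at 4 ages (horizontal axis) for the 10 genes; points are mice, and bars give the mean and SD of 6 mice. At 10 days all 6 mice lie below 0 for 7 of the genes, and at 12 and 20 weeks 57 of 60 points lie above 0.

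Lumican and decorin, encoded by Lum and Dcn, are small leucine-rich proteoglycans that bind collagen fibrils. For Lum the 10 day ratios ran from -3.03 to -1.03 with a median of -2.14 (mean -2.12 ± 0.72, SD, n = 6; limma adjusted p = 6.96e-08). The later medians were 0.27 at 4 weeks (-0.26 to 1.55), 0.48 at 12 weeks (-0.04 to 1.29) and 1.23 at 20 weeks (0.78 to 1.98). No 10 day mouse overlapped a mouse of any later age, and all 6 mice of 20 weeks were above the pool, where Lum was called higher (mean 1.33 ± 0.49, limma adjusted p = 4.16e-05). Dcn had 10 day ratios from -2.16 to -0.51 with a median of -1.40 (mean -1.44 ± 0.61, limma adjusted p = 9.80e-05). At 20 weeks its ratios ran from 0.61 to 2.33 with a median of 1.78 (mean 1.53 ± 0.66, limma adjusted p = 5.16e-05). The 4 week mice were the most scattered, from -0.72 to 1.67, and only they overlapped the 10 day range.

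Fibronectin, SPARC and periostin are glycoproteins that connect collagen to cells; fibronectin is also the scaffold on which early matrix assembles. Like the proteoglycans, Postn was low relative to the pool at 10 days. Its 10 day ratios ran from -2.34 to -0.65 with a median of -1.33 (mean -1.47 ± 0.60, n = 6, limma adjusted p = 1.27e-07). For Postn all 18 mice of later ages were above 0. Its 20 week ratios of 0.48 to 1.29 (median 0.97, mean 0.94 ± 0.32, limma adjusted p = 4.93e-05) stayed short of the 2-fold floor, and the mean without 20 week replicate 5 was 1.03. For Sparc, 10 day ratios ran from -2.17 to -0.46 with a median of -1.11 (mean -1.24 ± 0.65, limma adjusted p = 7.22e-06). Its later means, -0.02 ± 0.43, 0.16 ± 0.15 and 0.39 ± 0.54 at 4, 12 and 20 weeks, were not called, and neighbouring ages overlapped. The junction probe of Sparc printed above gave nearly the same 10 day mean, -1.28 ± 0.65, and correlated with the brighter probe at r = 0.93 over 24 arrays. At 12 and 20 weeks, however, the junction probe read 0.36 ± 0.17 and -0.02 ± 0.31, the reverse order of the brighter probe.

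Fn1 did not share the 10 day deficit of the other glycoproteins. Its 10 day ratios ran from -1.14 to 0.97 around a median of -0.43, with 3 mice below 0 and 3 above, and its mean was -0.20 ± 0.92 (limma adjusted p = 0.484). The spread lay between mice and not between spots: the 10 spots of the Fn1 probe on an array had a median SD of 0.11, and the second tested Fn1 probe correlated with it at r = 0.92 over 24 arrays. At 12 weeks the ratios ran from -0.01 to 0.21 (mean 0.12), and at 20 weeks from 0.20 to 1.55 (mean 0.62 ± 0.52, limma adjusted p = 0.024), under the 2-fold floor. The second probe had means of 0.004 ± 0.053 and 0.20 ± 0.28 at 12 and 20 weeks. Fn1 was dimmer at these ages, with mean NOD channel levels of 6.88 and 7.01 against 8.17 at 10 days. The scanner software's own ratios had means of 0.42 and 1.26 there. Over the 4 ages Fn1 was the only one of the 10 genes without an adjusted p under 0.05 in the limma F test (0.122), a test that 76% of all genes passed.

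Adamts2, the peptidase that trims the amino end of fibrillar procollagens, had the lowest 10 day mean of the 10 genes. Its 10 day ratios ran from -3.36 to -1.46 with a median of -2.89 (mean -2.71 ± 0.74, n = 6; limma adjusted p = 7.71e-11), which is 6.56-fold lower than the pool. The next age ran from -0.46 to 0.58 with a median of -0.18, the 12 week mice from 0.02 to 0.53 and the 20 week mice from 0.17 to 1.14. Every 10 day mouse was below every later mouse, while the later ages overlapped each other and none was called. The second tested Adamts2 probe was dimmer and read -1.03 ± 0.31 at 10 days, with r = 0.95 to the first over 24 arrays. At 20 weeks it read 0.10 ± 0.17 and was well above background in only 1 NOD channel and 0 pool channels.

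The PDGF receptors mark mesenchymal cells: Pdgfra mainly fibroblasts and Pdgfrb mainly pericytes and stellate cells, which depend on PDGF-B for recruitment to vessels. Pdgfrb had 10 day ratios from -1.97 to -0.21 with a median of -1.04 (mean -1.12 ± 0.73, n = 6; limma adjusted p = 2.05e-04) and 4 week ratios from -0.57 to 0.68. At 12 weeks the 6 mice ran from 1.16 to 1.93 with a median of 1.31 (mean 1.42 ± 0.28, limma adjusted p = 2.52e-05), above every mouse of both earlier ages. The 20 week mice spread from -0.08 to 1.56 (mean 0.79 ± 0.67), and Pdgfrb was not called there. Pdgfra moved less: 10 day ratios ran from -1.16 to -0.50 (mean -0.73 ± 0.24, limma adjusted p = 1.30e-05) and 20 week ratios from 0.25 to 1.28 (mean 0.77 ± 0.40, limma adjusted p = 7.25e-06). All 6 mice were below 0 at the first age and all 18 above 0 later, but the Pdgfra means stayed short of the 2-fold floor at every age. Pdgfra was dim, well above background in only 4 of the 6 pool channels at 4 weeks and 3 at 12 weeks; with the scanner software's own ratios its means were -1.78, 1.28, 1.84 and 2.04 at the 4 ages, all called.

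Acta2, which encodes the smooth muscle actin of activated stellate cells and of vessel walls, gave an answer that depended on the probe. By its junction probe, Acta2 at 10 days ran from -0.03 to 0.70 (median 0.13, mean 0.23 ± 0.28, n = 6), and its highest mean was at 4 weeks, 0.69 ± 0.31 (0.18 to 1.11, limma adjusted p = 2.22e-05), under the 2-fold floor. Its probe with 10 spots, nearly as bright, ran from -2.25 to 0.74 at 10 days (median -1.07, mean -0.82 ± 1.25) and from -0.87 to 2.19 at 4 weeks (mean 0.33 ± 1.12). These 2 probes hardly followed each other (r = 0.10 over 24 arrays), although the 10 spots on an array had a median SD of 0.09. Actin genes have similar coding sequences, so a probe in the coding part may take up RNA of other actins. How alike the sequences are at this probe, and the share of such RNA, were not tested. Another, dimmer probe read -1.17 ± 0.84 at 10 days, with all 6 mice below 0.

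**Figure D2:**
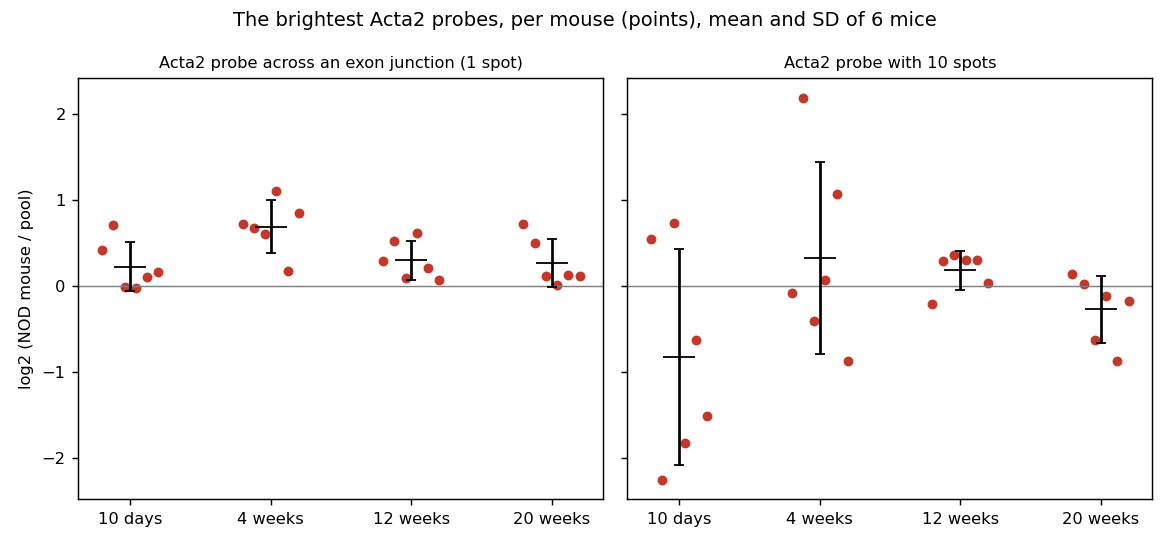
The log2 ratio to the pool (vertical axis) by age (horizontal axis) for the brightest 2 Acta2 probes, the junction probe on the left and the probe with 10 spots on the right; points are mice, and bars give the mean and SD of 6 mice. The junction probe stays within -0.03 and 1.11, whereas the probe with 10 spots spans -2.25 to 0.74 at 10 days and -0.87 to 2.19 at 4 weeks.

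Thy1, a glycolipid-anchored surface protein of fibroblasts that in the mouse is also carried by all T cells, had its highest ratios at the later ages, and of the other 9 genes Pdgfrb was the most like it (r = 0.95 over 24 arrays, which share pools within an age). Its 10 day ratios ran from -1.43 to 0.13 with a median of -0.61 (mean -0.57 ± 0.61, n = 6), and its 4 week ratios from -0.12 to 1.24 with a median of 0.44. At 12 weeks they ran from 1.92 to 2.63 (median 2.30, mean 2.24 ± 0.27, limma adjusted p = 5.68e-09) and at 20 weeks from 1.51 to 2.88 (median 2.11, mean 2.15 ± 0.50, limma adjusted p = 5.81e-09). Every mouse of these later ages was above every younger mouse, and the 12 and 20 week mice overlapped. The dim junction probe of Thy1 gave a smaller difference: it was well above background in 6 NOD channels and 0 pool channels at 12 weeks, where Thy1 by this probe was at least 1.27-fold higher, and in 5 and 0 at 20 weeks, at least 1.66-fold higher. It was bright enough to test only because of these NOD channels, so it is not independent support. At 10 days it was well above background in 2 NOD channels and 1 pool channel, and at 4 weeks in 0 of either. Its r to the brighter probe was 0.65 over 24 arrays, and 0.21 once the mean of each age was removed.

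T cell genes were also higher at the later ages, but they were not compared with Thy1 mouse by mouse. Of 13 T cell genes tested other than Thy1, 0 were called at 10 days, 1 was higher at 4 weeks, 6 at 12 weeks (Cd5, 2.90 ± 0.45, n = 6) and 9 at 20 weeks (Cd3d, 3.36 ± 0.64), with 0 lower at each age. Per mouse, the mean ratio of this list ran from -0.49 to 1.04 in the youngest group and 0.07 to 0.31 in the next, then from 1.07 to 1.84 and from 1.20 to 2.36 in the older groups. Between 10 days and 4 weeks the Thy1 ratio rose by 1.05, while the list had a median difference of -0.16 and 1 of 13 genes called higher. The log2 of the summed intensity of the list at 12 weeks was 12.52 to 13.84 in the NOD channel. It was 10.87 to 11.49 in the pool, where Cd2, Zap70 and Trat1 were never well above background. The part of T cell RNA in the Thy1 ratio was not tested. In whole-islet RNA, more cells of a type and more RNA per cell cannot be told apart, which holds for every gene here.

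At 12 weeks 2 of the 10 genes were called higher, Pdgfrb and Thy1, and 0 lower, beside 2.09% of all genes called higher and 1.42% lower; the median ratio of the 10 was 0.36. At 20 weeks 3 were called higher, Lum, Dcn and Thy1, and 0 lower, beside 3.87% and 1.23%, and the median of the 10 was 0.78. The median of all genes was 0.03 at 12 weeks and -0.0038 at 20 weeks. These counts depended on the scaling: with each array centred on its median 8 were called higher at 12 weeks, all but Fn1 and Pdgfra, and 1 at 20 weeks, Thy1. The scanner software's ratios and the authors' deposited table each called 6 at 20 weeks, adding Fn1 (1.26), Postn (1.14) and Pdgfra (2.04). The percentages above belong to the main scaling, and shares of all genes under these other scalings are not given. With median centring the median of all genes was 0.50 at 12 weeks and -0.21 at 20 weeks.

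Compared between ages, the ratios of 6 genes rose from 10 days to 4 weeks and 0 fell, beside 5.15% of all genes that rose and 3.85% that fell. Adamts2 rose by 2.67 (SE 0.26, limma adjusted p = 6.81e-08), Lum by 2.61 (SE 0.32), Dcn by 2.07 (SE 0.38), Postn by 1.90 (SE 0.23), Sparc by 1.22 (SE 0.26) and Thy1 by 1.05 (SE 0.26). The rise of Thy1 was below 2-fold without 10 day replicate 2, 4 or 6 (0.88, 0.99 and 0.98) or 4 week replicate 5 (0.90), and with each array centred on its median it turned to -0.06. Under that centring 2 of the 10 were called over this interval, Adamts2 (1.59) and Lum (1.5), while Dcn, Postn and Sparc read 0.95, 0.81 and 0.19. Pdgfra (0.99) and Pdgfrb (0.94) missed the floor narrowly; Pdgfra passed it without any 1 of 10 day replicates 1, 3 and 5 or of 4 week replicates 1, 3, 4 and 6 (1.00 to 1.04), and Pdgfrb without any 1 of 10 day replicates 1, 3 and 5 or of 4 week replicates 1 and 3 (1.01 to 1.12). One slide held 2 mice of each of these ages, and within it the differences were 2.92 for Adamts2, 2.82 for Lum, 2.5 for Dcn, 1.92 for Postn, 1.21 for Sparc and 1.08 for Thy1; with the slide as a fixed block Sparc (adjusted p = 0.124) and Thy1 (0.161) were no longer called.

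From 4 to 12 weeks the ratios of 2 genes rose and 0 fell, beside 2.97% of all genes that rose and 3.07% that fell. Thy1 rose by 1.75 (SE 0.26, limma adjusted p = 4.33e-05) and Pdgfrb by 1.60 (SE 0.31, limma adjusted p = 5.02e-04), each with no overlap between mice of the 2 ages. With each array centred on its median 8 rose, all but Fn1 and Pdgfra, and Acta2, Dcn and Postn turned from -0.39, -0.11 and -0.09 to 1.04, 1.36 and 1.16. That centring put the median of all genes at -0.15, 0.50 and -0.21 at 4, 12 and 20 weeks. Shares of all genes called under it are not given. From 12 to 20 weeks only Dcn passed, beside 2.01% of all genes that rose and 0.404% that fell: its difference was 1.01 (SE 0.38, limma adjusted p = 0.05), and it turned to -0.70 with each array centred on its median, under which 5 were called lower (Adamts2, Sparc, Pdgfrb, Acta2 and Thy1). Leaving out any 1 of 17 single arrays, including every 20 week replicate from 1 to 4, took Dcn off the list. Within the slide that held 2 mice of each age its difference was 1.18.

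Over the widest interval, 20 weeks minus 10 days, the ratios of 8 genes rose and 0 fell, beside 7.73% of all genes that rose and 4.8% that fell; Fn1 and Acta2 were the other 2. Lum differed by 3.44 (SE 0.32, limma adjusted p = 1.43e-08), a 10.9-fold shift of the ratio, Adamts2 by 3.32 (SE 0.26) and Dcn by 2.97 (SE 0.38). In all 8 genes every 20 week mouse was above every 10 day mouse, and the share of all genes with no overlap is not given. Fn1, at 0.82, passed the 2-fold floor without 10 day replicate 3 (1.01) or replicate 5 (1.05). The same 8 genes rose from 10 days to 12 weeks, beside 5% of all genes that rose and 3.72% that fell, and Pdgfra fell short of the floor there without 10 day replicate 6 (0.97). From 4 to 20 weeks 1 gene rose, Thy1 by 1.67, and 0 fell, beside 3.65% and 1.16%. Pdgfrb, Dcn and Lum, at 0.97, 0.90 and 0.84, each passed without 4 week replicate 5 (1.14, 1.11 and 1.05). Pdgfrb also passed without 4 week replicate 2 or 20 week replicate 2, 3 or 5 (1.01 to 1.14), and Dcn without 20 week replicate 5 or 6 (1.09 and 1.04).

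The 2 channels were also read apart. In the pools, the level of all 10 genes was higher on every 10 day array than on every array of each later age. The pool level of Lum was 12.53 ± 0.07 (SD over 6 arrays of the same pool) at 10 days and 9.19, 10.36 and 8.77 at 4, 12 and 20 weeks. The pool level of Postn was 11.06 ± 0.02 at 10 days and 8.06, 8.56 and 7.65 later, and that of Adamts2 was 10.88 ± 0.16 and then 8.23, 8.75 and 7.80. From the 10 day pool to a later pool the 10 genes were lower by 0.41 to 3.76, with Acta2 or Pdgfra the least changed, while the median of all genes differed by -0.0278 to 0.00777. Without scaling between arrays, 9 of the 10 kept this separation at each later age. The 6 arrays of an age repeat the same pool, and the share of all genes separated in this way is not given. Since each age has 1 pool, these are values of single RNA pools with no test. Fn1 and Acta2, which were not called lower at 10 days, were also higher in the 10 day pool than in later pools.

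In NOD mice the order of ages differed between genes: 4 of the 10, Fn1, Sparc, Postn and Acta2, had their highest mean level at 10 days, and the other 6 at a later age. The NOD channel level of Lum was 10.41 ± 0.73 (SD of 6 mice), 9.68 ± 0.62, 10.92 ± 0.46 and 10.09 ± 0.44 in order of age, and that of Adamts2 was 8.17 ± 0.64, 8.19 ± 0.39, 9.13 ± 0.23 and 8.40 ± 0.32. Of the 10 genes, 0 had all 10 day NOD mice above all 4 week mice, 2 had them above all 12 week mice (Fn1 and Sparc) and 0 above all 20 week mice. In 1 gene, Pdgfra, all 10 day NOD mice were below all 12 week mice. Shares of all genes ordered in these ways are not given. Sparc did fall with age: 12.87 ± 0.55, 12.07 ± 0.43, 11.71 ± 0.16 and 11.23 ± 0.54, alongside a pool level that went from 14.11 to 10.84.

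**Figure D3:**
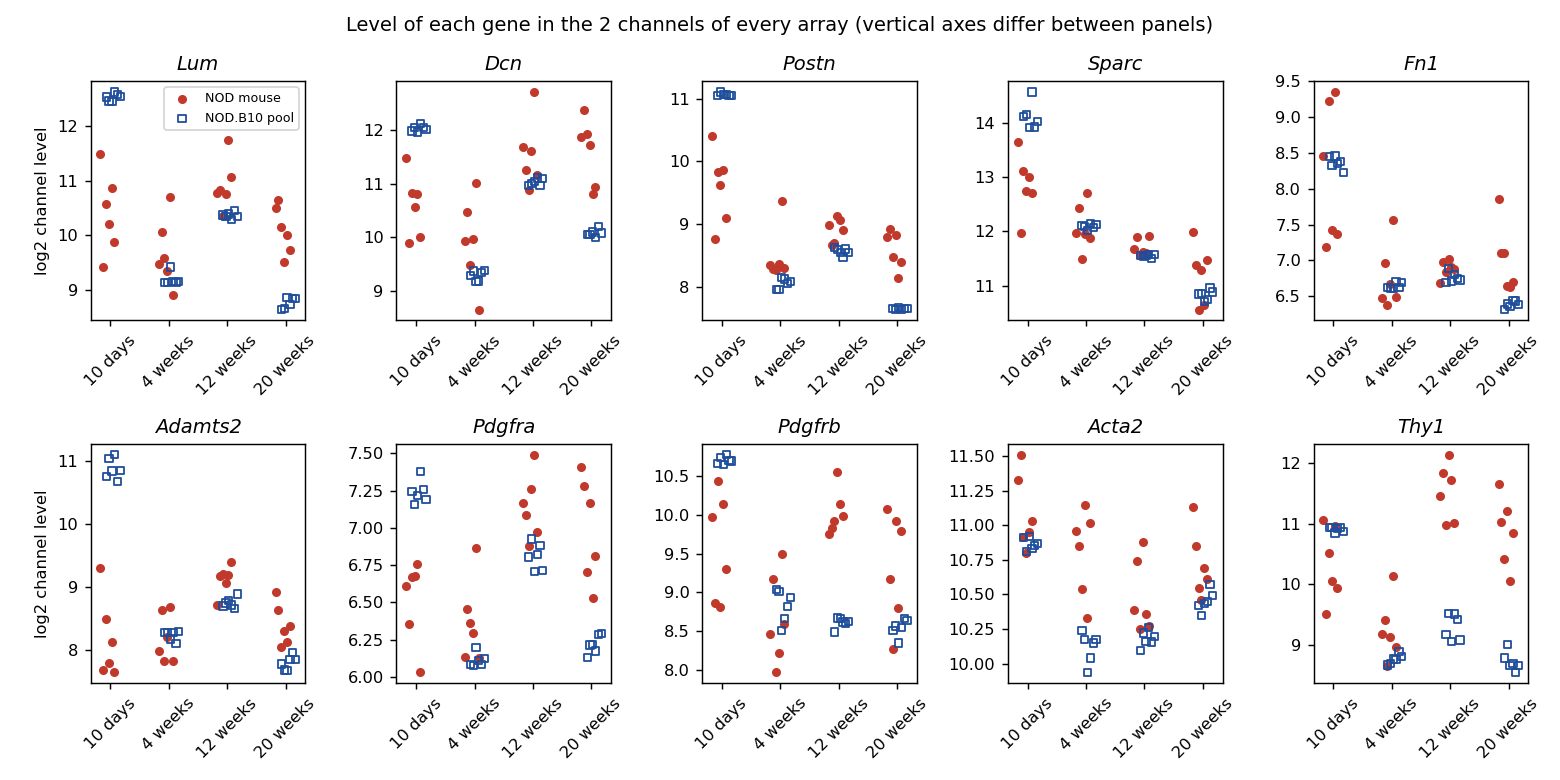
The log2 level in each channel (vertical axis, own range in each panel) by age (horizontal axis) for the 10 genes; filled points are NOD mice, and open squares are the 6 arrays of the single NOD.B10 pool of that age. The squares of 10 days lie above those of every later age in all 10 panels, as for Lum at 12.53 against 8.77 to 10.36.

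Tested in the NOD channel alone, 4 weeks against 10 days gave 0 genes higher and 3 lower, beside 1.84% and 1.5% of all genes, although 6 ratios had risen over the same interval. Fn1 fell by 1.42 (SE 0.32, limma adjusted p = 0.00236), Postn by 1.11 (SE 0.22) and Thy1 by 1.09 (SE 0.30). Postn (-0.95) and Thy1 (-0.95) fell short of 2-fold without 10 day replicate 1, as did Thy1 without 10 day replicate 5 (-0.97) or 4 week replicate 3 (-0.98), and without scaling between arrays 1 of the 3 was called. Pdgfrb, at -0.94, passed without 10 day replicate 2 or 4 or 4 week replicate 2 or 5 (-1.04 to -1.10). Adamts2, whose ratio rose by 2.67, differed by 0.02 (SE 0.23) in the NOD channel.

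From 4 to 12 weeks the NOD channel of 4 genes rose and 0 fell, beside 4.3% of all genes that rose and 1.06% that fell. Thy1 rose by 2.29 (SE 0.30, limma adjusted p = 6.60e-06), Dcn by 1.63 (SE 0.37), Pdgfrb by 1.38 (SE 0.32) and Lum by 1.24 (SE 0.32). For Dcn and Lum the 12 week pool was also higher than the 4 week pool, and the ratio differed by -0.11 and 0.07. Without scaling between arrays Thy1 alone was called higher, Lum, Dcn and Pdgfrb read 0.14, 0.52 and 0.40, and Sparc (-1.53) and Acta2 (-1.45) were called lower. Adamts2, at 0.94, passed without 4 week replicate 2 or 5 or 12 week replicate 1 (1.02 to 1.03).

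At 20 weeks the NOD channel differed from that of 12 weeks in 0 of the 10 genes by limma, beside 0.354% of all genes called in either direction. Of the 10, 4 had an unadjusted limma p under 0.05, again with no share of all genes given. Against 10 days, the 20 week channel had 1 gene higher (Dcn, 1.02, limma adjusted p = 0.0385), beside 3.38%, and 3 lower (Sparc, -1.64; Fn1, -1.16; Postn, -1.0), beside 1.68%. Leaving out any 1 of 10 day replicates 2, 4 and 6 or 20 week replicates 1 to 4 ended the call of Dcn, and Fn1 fell short without 10 day replicate 3 or 5 (-0.95 and -0.93). Postn fell short of 2-fold without any 1 of 10 day replicates 1, 3, 4 and 5 or 20 week replicates 3, 5 and 6 (-0.84 to -1.0), and its adjusted p stayed under 0.05 there. Without scaling between arrays only Sparc was called, lower, from 10 days to 20 weeks, and Acta2 (1.09) was called higher from 12 to 20 weeks. From 10 days to 12 weeks Thy1 rose by 1.19, beside 3.73% of all genes that rose, and Fn1 (-1.29) and Sparc (-1.15) fell, beside 1.89%; without scaling between arrays Thy1 read 0.29 and was not called, while Postn and Acta2 were called lower beside Fn1 and Sparc. Sparc fell just short of 2-fold without 10 day replicate 1. There, Adamts2 (0.95) passed without 10 day replicate 1 or 3 or 12 week replicate 1 (1.02 to 1.18), and Dcn (0.96) without 10 day replicate 1 or 12 week replicate 3 or 6 (1.04 to 1.13). From 4 to 20 weeks Dcn (1.69) and Thy1 (1.62) rose and 0 fell, beside 4.15% and 1.22%, and Sparc, at -0.85, reached 2-fold without 20 week replicate 1.

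**Figure D4:**
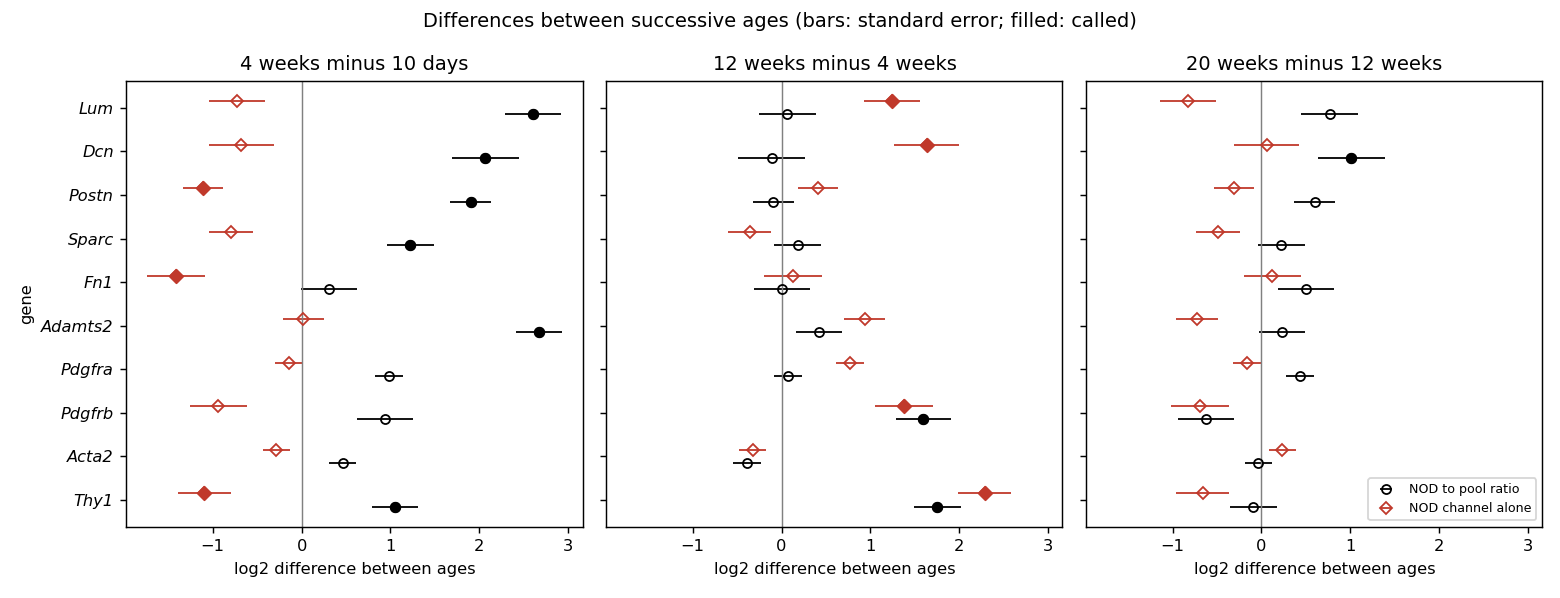
Log2 differences between successive ages (horizontal axis) for the 10 genes (vertical axis), in the NOD to pool ratio (circles) and in the NOD channel alone (diamonds); bars are standard errors, and filled symbols were called. From 10 days to 4 weeks 6 circles are filled on the right and 3 diamonds on the left, as for Postn at 1.90 and -1.11.

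The mice of an age differed from each other in the same direction for many of these genes, least so at 12 weeks. At 10 days replicate 2 had the lowest ratio for 7 of the 10 genes and replicate 1 the highest for 6, and the mean over the 10 genes ran from -1.76 to -0.49. At 4 weeks replicate 5 was highest for 9 genes, and the means ran from -0.10 to 0.96. At 12 weeks replicate 4 was highest for 5 genes and replicate 5 for 4, and replicate 3 was lowest for 4. The median r between pairs of the 10 genes over 6 mice was 0.267 at 12 weeks. It was 0.728 at 10 days, 0.88 at 4 weeks and 0.655 at 20 weeks. At 20 weeks replicate 1 was highest for 7 and replicate 5 lowest for 7, with means from 0.43 to 1.51. Replicate 5 of 20 weeks was also the array with the lowest share of probes above background in its NOD channel, 42.3%.

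Among the 14467 other genes compared over the 24 arrays, which share pools within an age, the most alike are given as a description with no test. Adamts2 was most like its substrates' genes Col1a1 (r = 0.99) and Col5a1 (0.99), Postn like Thbs2 (0.98), Sparc like the basement membrane gene Nid1 (0.97), and Lum like the Wnt receptor Fzd1 (0.98) and Col6a1 (0.98). Pdgfra was most like Ddr2 (0.97), a collagen receptor, and Pdgfrb like Notch3 (0.97), a receptor of mural cells. Dcn was most like Pros1 (0.96) and Thy1 like Ttyh3 (0.98). The best matches were weaker for Fn1 (Chrdl1, 0.88) and for Acta2 (Gmeb1, 0.82), and the mean of the 10 genes was most like Fzd1 and Adgra2 (both 0.99).

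Other matrix lists had the same direction at 10 days. Of 30 tested elastic fibre and adhesive glycoprotein genes 10 were lower and 0 higher, among them Mfap2 (-2.42 ± 0.56, n = 6), Fbln1 (-2.28 ± 0.46) and Fbln5 (-2.13 ± 0.90), which build and coat elastic fibres. Of 10 other proteoglycans 2 were lower, Hspg2 (-1.65 ± 0.59) and Ogn (-1.46 ± 0.53), of 12 noncollagen basement membrane genes 3, led by Agrn (-1.75 ± 0.37), and of 11 collagens 6, led by Col1a1 (-3.13 ± 1.02). Of 27 matrix processing genes 6 were lower, such as the membrane protease Mmp14 (-1.69 ± 0.58) and the elastin crosslinker Loxl1 (-1.68 ± 0.53), and 1 was higher, the prolyl hydroxylase subunit P4ha1 (1.08 ± 0.35). The list medians were -0.81, -0.62, -0.56, -1.46 and -0.42 in that order, against 0.01 for all genes.

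Lists of mesenchymal cells also held genes called lower: of 12 stellate cell and pericyte genes 5 were lower at 10 days, including Cd248 (-2.39 ± 0.79), Vim (-1.49 ± 0.54) and the pericyte channel Kcnj8 (-1.34 ± 0.76), but Des, which encodes desmin, read -0.35 ± 0.54 and was not called. Of 11 contractile genes 4 were lower, led by Myl9 (-1.82 ± 1.22), and of 14 fibroblast genes 2, Islr and Twist2. Among ligands and signals of these cells, of 5 PDGF ligands and relatives 1 was lower, Pdgfc (-1.22 ± 0.24), and Pdgfb read -0.18 ± 0.20, while of 14 TGF-beta pathway genes 4 were lower, including Tgfb3 (-1.29 ± 0.37) and the matricellular target Ccn2 (-1.20 ± 0.14). At 20 weeks 3 of the 12 stellate cell and pericyte genes were higher, among them Vim (2.29 ± 0.54) and Cygb (1.10 ± 0.38), 3 of the 14 fibroblast genes, led by S100a4 (2.92 ± 0.61), and 2 of the 11 collagens, Col1a2 and Col3a1. Vim and S100a4 are also made by leukocytes. The contractile gene Cnn1 was lower at 20 weeks (-1.70 ± 0.42).

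Cell types outside the connective tissue moved at the same ages. At 10 days 6 of 9 beta cell genes and 5 of 8 genes of other endocrine cells were higher in NOD and 0 lower, with list means per mouse of 0.45 to 1.83 and 0.70 to 1.94. All 5 adipocyte genes were lower at 10 days (list means -1.76 to -1.20), as were 3 of 10 endothelial genes (-1.30 to -0.39), such as Vwf (-1.96 ± 0.86). The intensities of a list were also summed and put in log2, a value that its brightest genes dominate. For the beta cell list at 10 days it was 18.13 to 18.98 in the NOD channel and 16.19 to 17.56 in the pool. For the stellate cell and pericyte list it was 12.43 to 13.48 and 14.08 to 14.31. At 4 weeks 9 of 10 acinar cell genes were higher (list means 1.04 to 1.83), and from 10 days to 4 weeks 7 of these rose and all 9 beta cell genes fell. Of 7 B cell genes 3 were lower at 10 days (list means -1.84 to 0.27) and 5 higher at 12 and again at 20 weeks (0.89 to 2.19 and 0.38 to 2.33). Of 9 macrophage genes 1 was lower at 10 days (-0.91 to 0.34), 3 were higher and 1 lower at 12 weeks, and 5 were higher at 20 weeks (0.61 to 1.56). At 20 weeks all 9 beta cell genes were lower (list means -3.23 to -0.71). The part that the makeup of the islet preparations has in the ratios of the 10 genes was not tested.

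**Figure D5:**
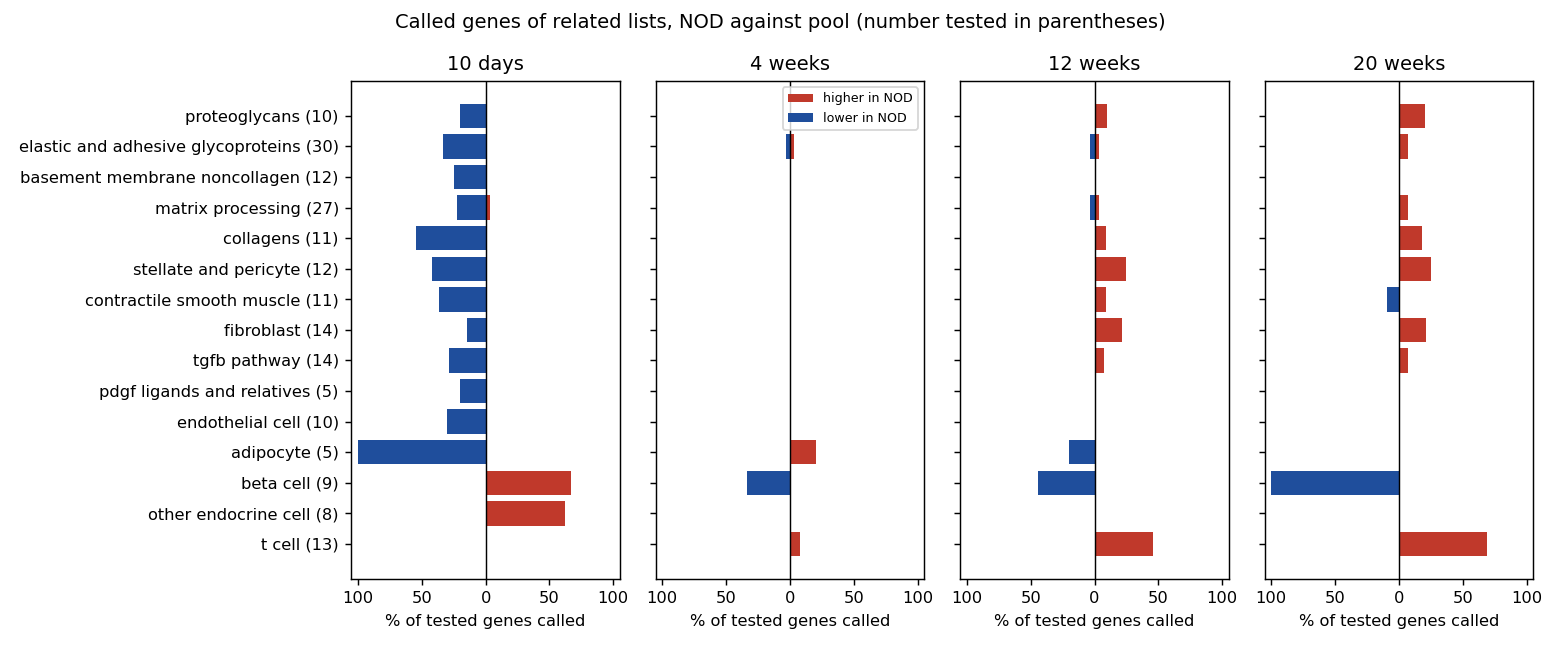
Share of the tested genes of each list that was called higher (right, red) or lower (left, blue) in NOD than in the pool (horizontal axis, percent) at each of 4 ages, with the number tested beside each list name. At 10 days the matrix and mesenchymal lists extend to the left, as for 10 of 30 elastic and adhesive glycoprotein genes, and the endocrine lists to the right.

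Promoters are shown for a pair of genes whose ratios moved together, Adamts2 and Postn. RefSeq windows on GRCm38.p6 were at hand for 5 of the 10 genes (Adamts2, Postn, Sparc, Pdgfra and Acta2), with 2 for Postn, and the 250 bases before each start were searched on both strands. Capitals mark GGGCGG or its complement and TATAAA. Adamts2 held 5 GC boxes (GGGCGG), which 32.7% of all 32851 promoter windows hold at least once, and the other 5 windows held 0. One Postn window held TATAAA, found in 12.4% of all windows. Exact matches to the AP-1 motif TGANTCA (6.75% of windows) were in none of the 6. The same held for the CArG box of muscle genes, searched as CC, 6 bases of A or T, and GG (1.47%). Near matches to that box, such as ccctatatgg and ccttgtttgg in the Acta2 window, were not counted. These 6 windows shared no exact match to the motifs searched.
Adamts2, chr11:50601835-50602084, + strand: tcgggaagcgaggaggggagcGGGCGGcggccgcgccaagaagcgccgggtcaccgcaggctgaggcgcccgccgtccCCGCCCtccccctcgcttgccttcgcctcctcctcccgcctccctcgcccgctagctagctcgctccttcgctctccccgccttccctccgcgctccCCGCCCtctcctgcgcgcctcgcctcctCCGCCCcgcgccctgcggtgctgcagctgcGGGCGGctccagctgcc
Postn, chr3:54360857-54361106, + strand: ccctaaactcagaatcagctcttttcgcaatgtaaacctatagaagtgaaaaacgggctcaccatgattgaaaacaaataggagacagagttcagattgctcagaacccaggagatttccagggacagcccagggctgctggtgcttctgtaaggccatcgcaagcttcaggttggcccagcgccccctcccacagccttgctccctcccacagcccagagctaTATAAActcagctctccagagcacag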

How the data were processed

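Islet RNA of 24 NOD mice, 6 at each of 4 ages, was measured on 24 arrays of design 014868 against 1 NOD.B10 pool per age, on 6 slides. The authors deposited scanner files with mean and background intensity for each spot and channel, a log10 ratio, and quality flags, made with Feature Extraction 10.7.3.1, per the file headers. The deposited value table holds log2 values with no stated scale; against the scanner's log ratio in log2 units its slope was 0.9997 to 1 with r of at least 0.9998 on every array, so it is that ratio with no further centring (column medians -0.181 to 0.086). Labelling used 300 ng of RNA, per the labels' protocols.

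In R 4.3.3 with limma 3.58.1, intensities were background-corrected (normexp, offset 50), ratios loess-normalized within each array with 1639 control spots given no weight, flagged outlier spots removed, and spots of a probe averaged. Probes well above background in either channel on at least 6 arrays were tested. Probes were named by RefSeq accession, current symbol or older symbol, and otherwise by the file's name (9381 probes). Each gene took its brightest tested probe. One fit over all arrays gave a mean per age, tested against 0, between ages and by an F test. Channel levels were scaled between arrays by Aquantile, and the NOD channel was tested alone in the same way. Probe precision is limited by the number of arrays, and p-values measure spread between NOD mice only, since each age has 1 pool. A fold bound sets a channel that is not well above background at the lowest signal that is. The pipeline was tested on simulated data. The 10 genes, the gene lists and the tests were chosen with earlier results of these data known. Named list genes are up to 3 called genes per direction with the largest mean at each age, of which some are not reported here; genes most alike are the 3 with the highest Pearson r; Des, Pdgfb, Lrat, Gfap, Cd2, Zap70 and Trat1 were named after their values were seen. The 21 lists also covered mesothelial, B, macrophage, acinar, duct and Schwann cells. Alternatives were other background and array scalings, the scanner's ratios, the deposited table, no filter, means over probes, array weights, slide and replicate blocks, and leaving out arrays.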

Additional observations from a re-analysis of the deposited data

Results flagged for a closer look

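In 2 of 40 sets of 6 mice, 1 mouse stood apart from the other 5 by Dixon's gap test, a rate that chance gives in about 1 of 20 sets. Adamts2 at 12 weeks read 0.02 in replicate 1, with the next mouse at 0.36, and Postn at 4 weeks read 1.32 in replicate 5, with the next at 0.39.

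The NOD to pool ratio of 8 genes differed between ages by the limma contrast, and the widest difference of each was as follows. From 10 days to 20 weeks it was 3.44 for Lum, 3.32 for Adamts2, 2.97 for Dcn, 2.41 for Postn, 1.63 for Sparc and 1.49 for Pdgfra. From 10 days to 12 weeks it was 2.81 for Thy1 and 2.54 for Pdgfrb. Each of these contrasts includes the difference between the pools of the 2 ages.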

How the results depend on the processing

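Counts here are of the 10 genes called, and shares of all genes under each alternative are not given. With each array centred on its median, the median of all genes moved to 0.38, -0.15, 0.50 and -0.21 at the 4 ages; relative to it 8, 3, 1 and 2 of the 10 genes were below it. Under it 2 were called at 10 days (Adamts2 and Lum), 8 at 12 weeks and 1 at 20 weeks, and 2, 8 and 5 over successive ages. Its reversals were Thy1, 4 weeks minus 10 days (-0.0634), Acta2, Dcn and Postn from 4 to 12 weeks (1.04, 1.36, 1.16), Adamts2, Dcn and Sparc from 12 to 20 weeks (-1.14, -0.70, -1.51) and Acta2 from 10 days to 20 weeks (-1.32); the cause was not tested. Without background subtraction 5 were called at 20 weeks and 2 from 4 to 20 weeks. The scanner's ratios and the deposited table each called 1 at 4 weeks, 6 at 20 weeks and 0 from 12 to 20 weeks, and 2 and 3 from 4 to 20 weeks. The single call from 12 to 20 weeks became 0 with no filter, with means over probes and with the slide as a random or fixed block. Without the 20 week arrays numbered 5 and 6, 3 were called from 4 to 20 weeks and 2 in the NOD channel from 10 days to 20 weeks; array weights called 3 from 4 to 20 weeks. With no fold floor 3, 4 and 9 were called at 4, 12 and 20 weeks, and 2 and 4 from 12 and from 4 to 20 weeks. Without scaling between arrays, the NOD channel gave 1 call from 10 days to 4 weeks, from 12 to 20 weeks and from 10 days to 20 weeks. Leaving out 1 array gave 5 to 6 calls at 10 days, 0 at 4 weeks, 2 at 12 weeks and 3 to 4 at 20 weeks. Between ages it gave 5 to 8 from 10 days to 4 weeks, 2 from 4 to 12 weeks, 0 to 1 from 12 to 20 weeks, 8 to 9 from 10 days to 20 weeks, 7 to 8 from 10 days to 12 weeks, 1 to 4 from 4 to 20 weeks and 8 to 10 by the F test; in the NOD channel, in the same order, 1 to 4, 4 to 5, 0, 2 to 4, 3 to 4 and 2 to 3. The labels do not tie same-numbered mice of different ages to each other, and 11 of 36 pairs correlated over 0.1 (-0.42 to 0.63); with replicate number as a block none of the 13 counts changed, as for 6 called from 10 days to 4 weeks.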
